A study of Rattus norvegicus with 12 samples.

Results

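Long noncoding RNAs (lncRNAs) with an Ensembl transcript identifier were examined on embryonic day 17 in fetal Wistar rats, in the lumbosacral part of the spinal cord. They are the rows of the lncRNA table whose identifier begins with the Ensembl rat transcript prefix, and they number 985 of 22701 rows. The other rows carry NONCODE identifiers (20717 rows) or identifiers of an assembly from the reads (999 rows). Total RNA was sequenced in 3 libraries from normal fetuses and 3 from fetuses with anorectal malformations (ARM), given here as normal replicates 1 to 3 and ARM replicates 1 to 3. The malformations were induced with ETU, the usual short name of ethylenethiourea, and no group exposed without a malformation was labelled, so the exposure and the malformation cannot be told apart. The labels do not say whether the samples were pooled or came from separate litters, so the tests measure the spread between these samples.

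An lncRNA is a transcript longer than a small RNA that is not known to be translated. Ensembl rows come from a curated and automatic gene annotation, whereas NONCODE collects noncoding transcripts from many sources. The class also takes in a few short, highly structured RNAs made by RNA polymerase III, which work inside ribonucleoproteins: RNase MRP RNA in the enzyme that cuts precursor ribosomal RNA, 7SK RNA in the complex that holds back the elongation factor P-TEFb, and 7SL RNA as the scaffold of the signal recognition particle. In spinal cord, as in other tissues, most annotated lncRNAs are known for low levels.

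Total lncRNA counts ran from 3017868 to 4549756 per library, and a floor of 3 counts in 1 library came to 0.664 to 1.01 CPM. CPM are counts relative to TMM-scaled library sizes (edgeR's cpm). Of 9 neuronal marker genes, 5 had rows named after them, which summed to 640 to 717 CPM in normal and 530 to 720 CPM in ARM cord. The motor neuron markers had no row. Sensory ganglion markers, with rows for 1 of 3 genes, had 499 to 549 CPM in normal and 473 to 612 CPM in ARM cord. For cartilage and meninges the sums were 30.4 to 75.7 and 41.7 to 50.4 CPM. Progenitor and glia markers reached at most 21.3 CPM, and endothelium and microglia markers 43.4 CPM. Such noncoding rows do not stand in for the markers' messenger RNA. The blood marker sum, which was 1 row in all, was 1.58 to 4.05 CPM in normal cord and 3.23 to 212 CPM in ARM cord, with the high value in ARM replicate 3. Muscle markers reached at most 0.627 CPM. None of the marker rows is an Ensembl row, and the part of other cells in the results below was not tested. In bulk tissue, fewer cells of a type and less RNA per cell cannot be told apart.

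Most Ensembl rows had no gene symbol. Contig names of the AABR form covered 779 rows, AC clone names 81, names of the Rn60 form 87, and only 38 had a LOC, RGD or gene name. The 985 rows carried 904 distinct names, 69 of them on more than 1 row, and at most 4 rows shared a name. NONCODE identifiers were also listed for 788 rows. By name or accession, 37 rows matched a gene of the RefSeq GRCr8 annotation, of which 25 were protein coding, 11 lncRNA and 1 signal recognition particle RNA. The source column called 193 rows long intergenic RNAs, 3 antisense and 1 sense intronic, and gave 761 no class beyond Ensembl. The sense intronic row, Rn60_10_0635.1, had 240, 459 and 326 counts in normal and 278, 293 and 273 in ARM replicates 1 to 3, and 1 of the 3 antisense rows, Rn60_20_0032.5, had 224 to 534 counts. The other 2 antisense rows never passed 3 counts.

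By name, none of the imprinted, nuclear, X inactivation, neural or snoRNA host lncRNA lists had an Ensembl row, and neither had the spinal cord development list. Since most rows have no gene symbol, an empty list does not show that its lncRNAs are absent from the class. Of 17 lists, 5 had members by name. The snoRNA list searched for names beginning Snora, Snord or Scarna, so it took in neither of the U3 rows described below. The lists with members were the RNase MRP and RNase P RNAs with 1 row and 7SK and signal recognition particle RNAs with 2. Others were miRNA host genes with 1, rows named after a coding gene with 25, and rows called without a gene symbol with 956. That last list held AABR, AC, Rn60, LOC and RGD names not matched to a coding gene. It includes LOC102723236, which RefSeq names and another list also holds, so the lists overlap. The miRNA host was AABR07030911.2, matched to Mir155hg, the host of miR-155. It had 2 counts in normal replicate 3 and 1 in ARM replicate 1, and the annotation puts that gene on another chromosome than the table does.

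Promoter sequence was on hand for 7 of the RefSeq lncRNA genes. A pair is printed because their rows behaved in opposite ways: the 3 rows of LOC102549726 had reads in all 6 libraries, and the row of Chchd4l1 (RGD1564534 in the table) had reads in 1 library only. Both run from 250 bases before to 50 bases after the RefSeq start in GRCr8, at chr20:3880958-3881257 and chrX:62690140-62690439, both on the plus strand, and capitals mark TATAAA, the core of the TATA box.
LOC102549726: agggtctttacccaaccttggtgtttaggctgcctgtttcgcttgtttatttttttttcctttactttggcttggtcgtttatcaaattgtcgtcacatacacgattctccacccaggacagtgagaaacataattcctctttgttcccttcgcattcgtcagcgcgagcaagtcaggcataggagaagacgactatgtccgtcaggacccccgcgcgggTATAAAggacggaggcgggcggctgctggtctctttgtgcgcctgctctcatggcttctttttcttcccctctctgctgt
Chchd4l1: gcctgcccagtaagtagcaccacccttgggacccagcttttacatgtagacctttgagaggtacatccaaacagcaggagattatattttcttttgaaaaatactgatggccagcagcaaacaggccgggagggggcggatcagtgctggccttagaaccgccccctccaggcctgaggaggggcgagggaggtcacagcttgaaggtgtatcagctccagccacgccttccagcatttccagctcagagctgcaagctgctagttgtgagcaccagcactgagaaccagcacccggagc

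In LOC102549726 the motif began 30 bases before the start. Chchd4l1 had no TATAAA on either strand of its window. Of the 7 genes, only LOC102549726 held TATAAA on the gene's strand, and a link between the motif and the reads was not tested. Of 33469 RefSeq promoters of this length, 8.80% held TATAAA on the gene's strand, 14.2% on either strand, and 2.35% within 50 bases before the start. These letters are a description of the window and say nothing of a bound factor. LOC102549726 was chosen after its values were seen.

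The longest of the LOC102549726 rows in genomic span (chromosome 20, 4871264 to 4873982 as deposited) had 247, 423 and 481 counts in normal and 407, 368 and 224 in ARM cord. Another had 78, 117 and 150 against 125, 110 and 86, and the last had 39, 58 and 64 against 51, 57 and 34. The groups overlapped in each of the 3 rows. Summed, they gave 123, 135 and 154 CPM in normal and 156, 144 and 108 CPM in ARM cord, a log2 difference of -0.010 ± 0.16 (SE).

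A set of 3 short RNAs held most of the reads of the Ensembl rows. RNase_MRP (272 bases, chromosome 5, 58994682 to 58994953, the table's build being unnamed in its sources) had 24700, 37676 and 53724 counts in normal and 51233, 41682 and 29391 counts in ARM replicates 1 to 3. In CPM these were 8340, 8484 and 11884 in normal and 13741, 11226 and 9211 in ARM cord. Its deposited FPKM, reads scaled by transcript length and library total, lay between 4793 and 7269. The groups overlapped, and ARM minus normal was 0.25 ± 0.19 on the log2 scale, which did not pass the test (edgeR adjusted p = 0.9997). With 1 library left out the difference ran from 0.091 (without ARM replicate 1) to 0.44 (without normal replicate 3).

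The 7SK row (331 bases, chromosome 8, 85480292 to 85480622) had 3144, 3389 and 4159 CPM in normal and 4099, 4265 and 3101 CPM in ARM cord. LOC102723236 (300 bases, chromosome 6, 91680229 to 91680528), which RefSeq names Rn7sl1 and classes as signal recognition particle RNA, had 1567, 1524 and 2005 CPM in normal and 2342, 1853 and 1341 CPM in ARM cord. Normal replicates 1 and 2 and ARM replicate 3 were the 3 lowest libraries for 7SK, and normal replicate 3 and ARM replicates 1 and 2 the 3 highest. RNase_MRP and LOC102723236 had the same 3 libraries on top. The log2 differences were 0.10 ± 0.16 for 7SK and 0.12 ± 0.21 for LOC102723236, neither past the test, and that of 7SK ran from 0.014 to 0.23 with 1 library left out. The ratio of the highest to the lowest library was 1.65 for RNase_MRP, 1.38 for 7SK and 1.75 for LOC102723236. The genes of 7SK and 7SL RNA are known for many near-identical copies in mammalian genomes, and the sources do not state how reads that match several copies were counted.

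**Figure D1:**
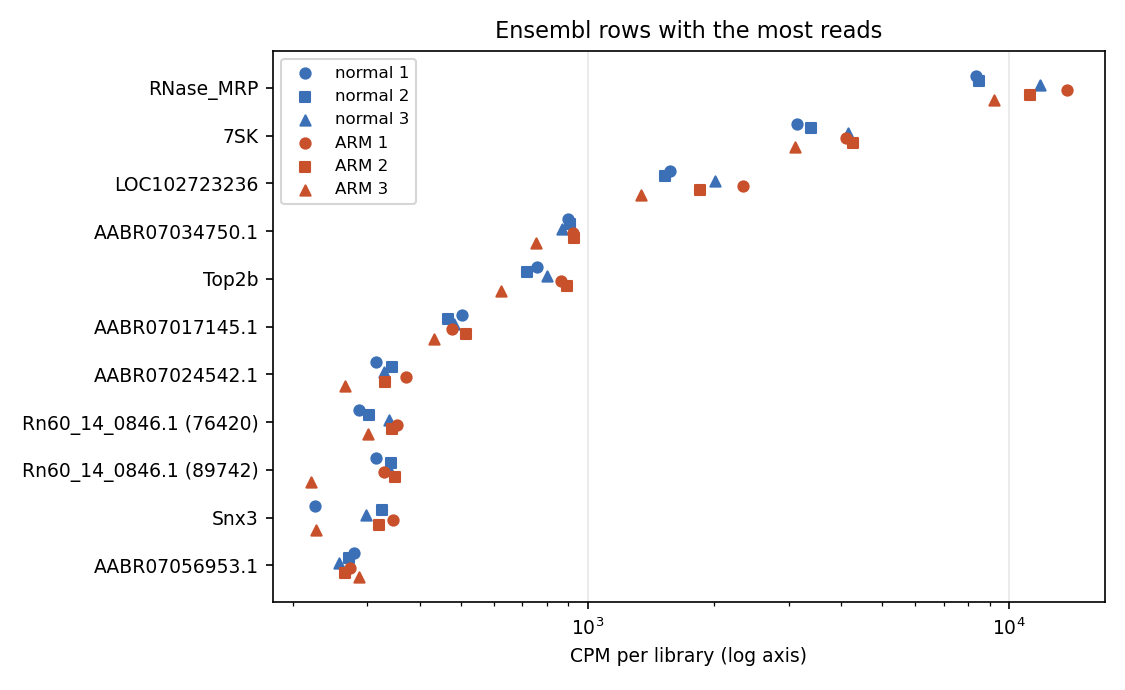
CPM (log axis) in each of the 6 libraries for Ensembl rows with the highest mean CPM, with normal libraries in blue, ARM libraries in orange and 1 symbol per replicate. RNase_MRP, 7SK and LOC102723236 lie at 1341 CPM or more in all 6 libraries, and every other row shown lies at 931 CPM or less. Numbers in brackets end the identifiers of rows that share a name.

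These 3 rows held 51.0%, 51.7% and 58.8% of all Ensembl counts in normal and 61.1%, 58.0% and 51.8% in ARM cord. Ensembl rows as a whole took 2.51%, 2.55% and 3.05% of lncRNA counts in normal and 3.25%, 3.03% and 2.55% in ARM cord, or 2.71 ± 0.300% against 2.94 ± 0.357% (SD, n = 3). The groups overlapped, and the difference of the means was smaller than either SD. Without the 3 rows, the remaining 982 rows took 1.23%, 1.23% and 1.26% of lncRNA counts in normal and 1.26%, 1.27% and 1.23% in ARM cord. The rise and fall of the Ensembl share between libraries was thus carried by the 3 short RNAs, whose own share ran from 1.28% to 1.98%.

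The next highest row was AABR07034750.1 (5400 bases, chromosome 11), with 900, 908 and 867 CPM in normal and 922, 931 and 756 CPM in ARM cord. A row named Top2b, after the coding gene of DNA topoisomerase II beta (4740 bases, chromosome 15), had 759, 716 and 800 CPM in normal and 866, 895 and 624 CPM in ARM cord. AABR07017145.1, also on chromosome 15, had 504, 465 and 482 CPM against 477, 514 and 431 CPM. All 3 were lowest in ARM replicate 3, and in each the groups overlapped.

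Between 265 and 370 CPM lay AABR07024542.1, on chromosome 16. Rn60_14_0846.1, on chromosome 14, had overlapping rows at 287 to 353 and at 220 to 349 CPM. AABR07056953.1, on chromosome 7, lay at 257 to 286 CPM. Snx3, named after a sorting nexin of the endosome, had overlapping rows. Its longer row had 225, 324 and 298 CPM in normal and 345, 320 and 227 CPM in ARM cord, and its shorter row 258, 154 and 241 CPM against 195, 204 and 222 CPM. Normal replicate 2 was thus above normal replicates 1 and 3 in the longer row and below them in the shorter row, and their sum was 478 to 539 CPM in normal and 448 to 540 CPM in ARM cord.

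Rows named after coding genes cannot be told from the messenger RNA of those genes by name, and no source used here states whether the counts used strand. Of the 25 such rows 16 passed the read filter, with 8 log2 differences above and 8 below 0 and a median of 0.0032. The antisense and overlapping rows carry the same limit: 299 Ensembl rows overlapped another row of the table, 193 of them a NONCODE or assembled row.

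Per length, the typical Ensembl row was far below the typical row of the other classes. Its median FPKM was 0.195, 0.204 and 0.199 in normal and 0.172, 0.181 and 0.235 in ARM replicates 1 to 3. NONCODE rows had medians of 1.03 to 1.26 and assembled rows of 2.76 to 4.50. The Ensembl median was lower in 6 of 6 libraries, by 2.49 ± 0.0646 log2 units (SD over libraries, 5.63-fold) than NONCODE and by 4.07 ± 0.159 (16.8-fold) than the assembled rows. An exact two-sided sign-flip permutation test over the 6 libraries gave p = 0.031 for both, also after adjustment over the pair, and this is the smallest p that 6 libraries allow. The test measures only how steady the ratio was over these libraries. Assembled rows were built from reads, and 0 of them averaged under 1 count. Their higher median was thus set in part by how rows entered the class, and it is given as a description. Ensembl and NONCODE rows are not separate collections, since 788 of the 985 Ensembl rows also list a NONCODE identifier. ARM replicate 3 had the highest median in all 3 classes.

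The order turned when the mean over rows replaced the median. Mean FPKM of Ensembl rows was 8.61 to 11.6, above the 4.57 to 5.11 of NONCODE rows in every library, by 1.06 log2 units (same exact test, p = 0.031). Against assembled rows, whose mean was 8.09 to 12.8, the difference was -0.14 (same exact test, p = 0.344). Leaving out RNase_MRP, 7SK and LOC102723236 brought the Ensembl mean to 1.31 to 1.68, which was 1.75 log2 units below NONCODE and 2.95 below the assembled rows. Among rows with a mean of 10 or more counts, the Ensembl median was 1.61 to 2.28 FPKM, and the gaps narrowed to 0.62 log2 units from NONCODE and 0.85 from assembled rows.

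**Figure D2:**
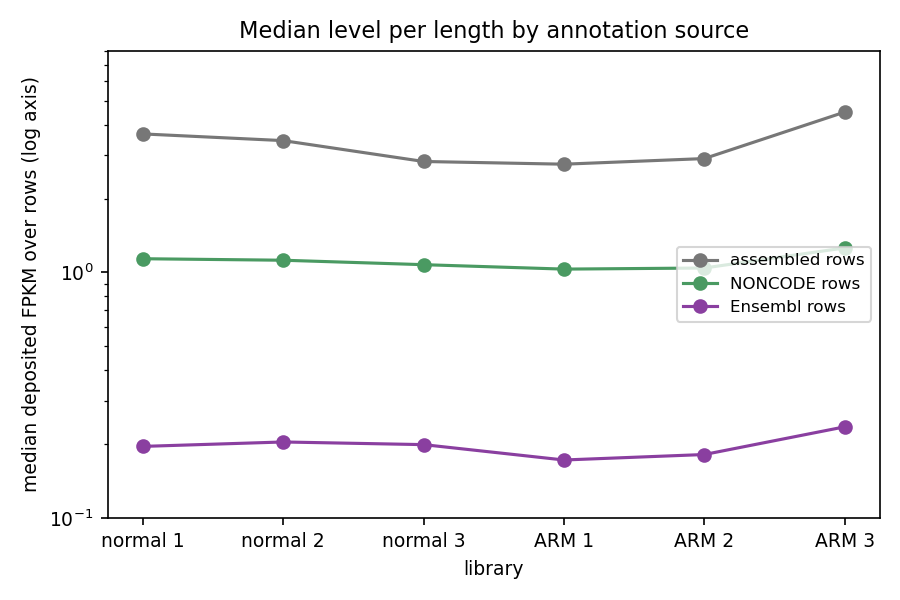
Median deposited FPKM over all rows (log axis) in each of the 6 libraries, for the 985 Ensembl, 20717 NONCODE and 999 assembled rows; lines join the libraries only to guide the eye. The Ensembl medians of 0.172 to 0.235 lie below the other medians in every library.

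Ensembl rows also had reads in fewer libraries. Assembled rows have reads by construction and are given for scale. Reads were present in all 6 libraries for 529 Ensembl rows (53.7%), against 85.7% of NONCODE and 86.6% of assembled rows. In 33 Ensembl rows (3.35%) only 1 library had any read, as in 0.888% of NONCODE and 2.40% of assembled rows. The mean over libraries was under 1 count for 197 rows (20%), compared with 5.34% of NONCODE rows. The median row had a mean of 3.33 counts against 17.5 for NONCODE and 291 for assembled rows. At the upper end, 93 Ensembl rows averaged 100 or more counts and 12 averaged 1000 or more. The read filter for the test between groups passed 305 Ensembl rows (31.0%), 59.6% of NONCODE rows and 92.3% of assembled rows. Absence of reads at these depths does not show that a transcript is not made.

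Ensembl rows were 119 to 6316 bases long, with a median of 755 and quartiles of 471 and 1352. NONCODE rows had a median of 652 bases and assembled rows one of 3574. The length equalled the genomic span, as in an unspliced transcript, in 38 Ensembl rows (3.86%) and in 47.7% of NONCODE rows. In 4 groups cut at the length quartiles, from short to long, the median of the mean FPKM was 0.192, 0.179, 0.208 and 0.201, so the typical level per length did not follow length. Reads did: the median row had 1.5, 2.67, 5 and 9.5 counts, and 14.6%, 25.2%, 33.7% and 50.4% of rows passed the filter. What could be tested was therefore weighted toward longer transcripts.

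**Figure D3:**
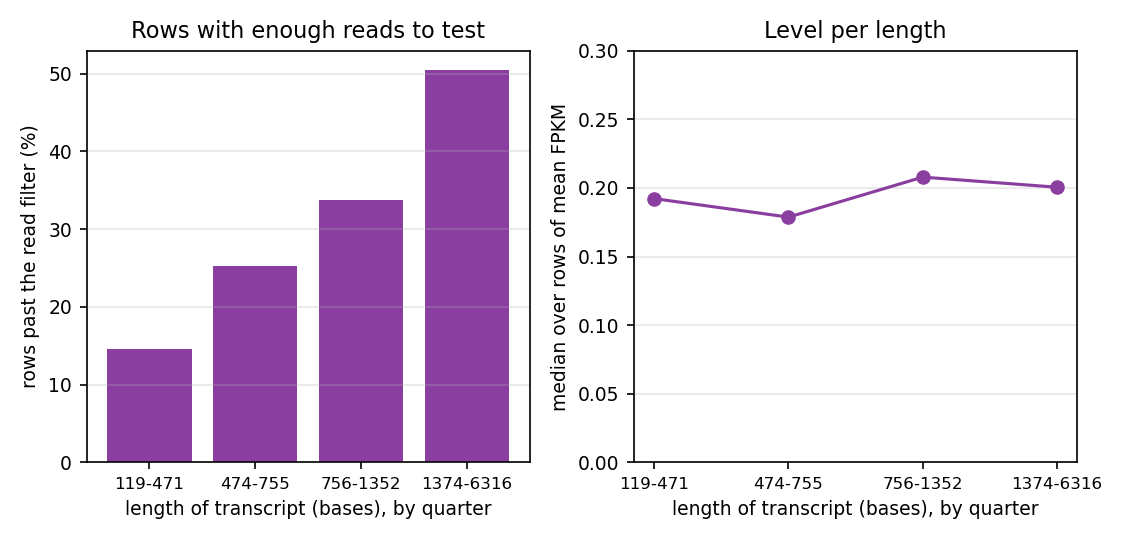
Left, the share of Ensembl rows past the read filter (%, axis from 0) by transcript length in bases, in 4 groups cut at the quartiles. Right, the median over rows of the mean FPKM in the same groups. The tested share rises from 14.6% to 50.4%, while the median level stays between 0.179 and 0.208 FPKM.

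The longest rows were AABR07028908.2 (6316 bases, 51 to 102 counts per library), AABR07044049.1 (6099 bases, 417 to 646 counts) and AABR07012131.2 (5848 bases, at most 3 counts). The shortest were AABR07071768.1 (119 bases, at most 1 count), AABR07044367.1 (132 bases, at most 4 counts) and AABR07058934.1 (134 bases, 1 to 9 counts). Both ends of the length range thus held rows with hardly any reads. On the X chromosome lay 59 Ensembl rows (5.99%), against 2.86% of NONCODE rows.

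Between ARM and normal cord no Ensembl row passed the test. Of the 305 rows that passed the read filter, 0 were called at an adjusted p under 0.05 by edgeR's quasi-likelihood test, where 0.0515% of all 13584 tested rows were called. DESeq2 also called 0 (background 0.133%), as did edgeR with no read filter (0.0264%). With a filter at a mean of 10 or more counts, which let 13741 rows of the table through, edgeR called 0 Ensembl rows too (0.0509%). Without 1 library, edgeR called 0 Ensembl rows except in the setting described below for Nhsl2, with backgrounds of 0.126%, 0.0778% and 0.071% without normal replicates 1 to 3 and of 0.106% and 0.126% without ARM replicates 1 and 3. At an unadjusted p under 0.05 there were 9 Ensembl rows (2.95%), 4 higher and 5 lower in ARM cord, against 3% of all tested rows. The groups did not overlap in 25 rows (8.20%), with ARM above normal in 12 and below in 13, and the background was 7.78%, made up of 3.87% above and 3.91% below. These shares lie near the background. The log2 differences had a median of 0.0086 and quartiles of -0.13 and 0.16, against a median of 0.0036 for all tested rows. Of the 305 rows, 156 were above 0 and 149 below. The difference stayed within 0.5 log2 units in 273 rows and reached 1 in 4. Rows without a gene symbol (287 tested) had a median of 0.0081.

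**Figure D4:**
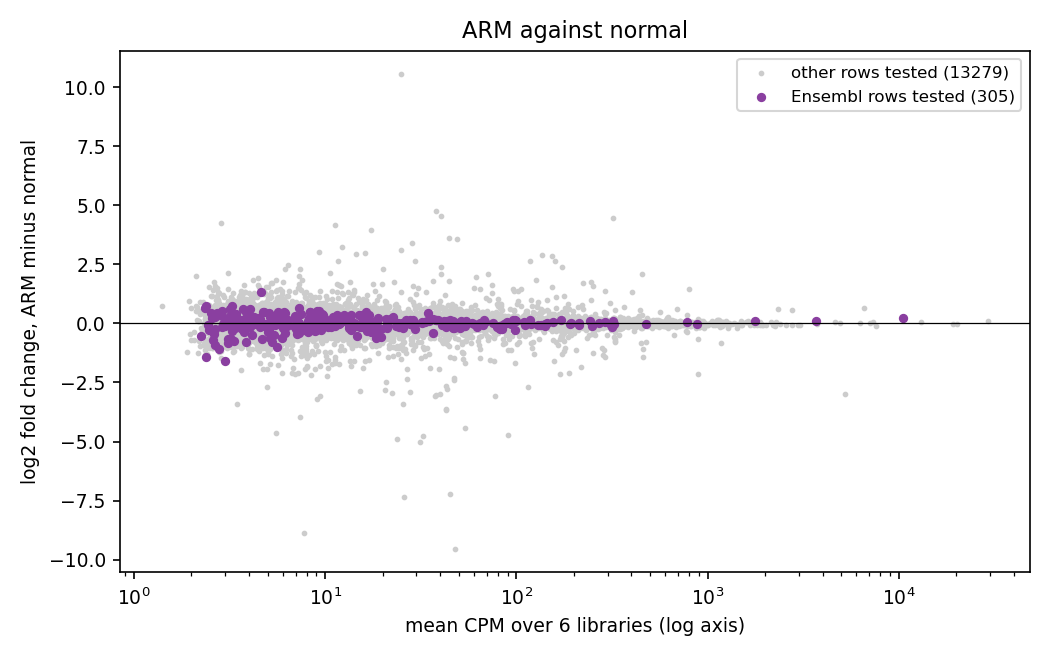
Log2 fold change, ARM minus normal, against the mean CPM over 6 libraries (log axis) for the 13584 tested lncRNA rows, with the 305 Ensembl rows in purple. Ensembl rows lie between -1.60 and 1.33, and no Ensembl row was called.

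The 4 rows that reached 1 log2 unit had few reads. Dmrtc1b (chromosome X, 73659183 to 73673602), named after a gene of the DMRT-like family, had 2, 16 and 15 counts in normal and 30, 23 and 19 in ARM cord. The groups did not overlap, with ARM higher by 1.33 ± 0.46 (SE), and the adjusted p from edgeR was 0.9997. A second Dmrtc1b row that overlaps it had 9, 42 and 28 counts against 16, 21 and 12, and the pair summed to 3.71, 13.1 and 9.51 CPM in normal and 12.3, 11.8 and 9.72 CPM in ARM cord. Summed, the groups overlapped and the log2 difference was 0.34 ± 0.39.

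AABR07000410.1, on chromosome 1, had 8, 25 and 13 counts in normal and 5, 5 and 9 in ARM cord (-1.06 ± 0.46). Without normal replicate 2 the difference was -0.62, and without ARM replicate 1 or 2 it was -0.88. AABR07027243.1 (-1.60 ± 0.77) is described below with its other row. AABR07008462.1, on chromosome 2, had 9, 18 and 14 counts in normal and 0, 0 and 13 in ARM cord (-1.42 ± 1.07), and was chosen after its values were seen. A row of the same name had 5, 2 and 0 counts against 8, 17 and 4, and another 13, 16 and 17 against 5, 10 and 11. The 3 rows summed to 9.12, 8.11 and 6.86 CPM in normal and 3.49, 7.27 and 8.77 CPM in ARM cord, so the groups overlapped, with a log2 difference of -0.30 ± 0.34. None of the 4 passed the adjusted threshold.

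The smallest unadjusted p of the Ensembl rows, 0.0251 by edgeR, belonged to AABR07054593.1 on chromosome 3 (162687971 to 162692111). It had 57, 65 and 83 counts in normal and 50, 43 and 36 in ARM cord, or 19.2, 14.6 and 18.4 CPM against 13.4, 11.6 and 11.3 CPM. ARM was lower in every library, by 0.52 ± 0.18 log2 units. Lace1 (233 bases, chromosome 20), a synonym of Afg1l, which encodes a mitochondrial ATPase, had 16, 19 and 22 counts against 7, 14 and 9 (-0.76 ± 0.31). Its longer row, with 74, 112 and 119 counts against 109, 74 and 66, had a log2 difference of -0.13 ± 0.18.

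AABR07065531.5, on chromosome 6, had a row with 71, 96 and 98 counts in normal and 46, 75 and 36 in ARM cord (-0.61 ± 0.24). A higher row of that name, overlapping it, had 453, 570 and 524 counts against 453, 416 and 463 (-0.07 ± 0.16). The remaining lower rows by this ranking were AABR07035802.1 (-0.84 ± 0.32), AABR07059002.1 (-0.63 ± 0.26), AABR07037708.1 (-0.69 ± 0.31) and AABR07052897.3 (-0.73 ± 0.35). None of the named lower rows passed the adjusted threshold.

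Among the higher rows, Rn60_2_1764.2 on chromosome 2 had 14.2, 16.2 and 14.2 CPM in normal and 20.7, 18.6 and 18.2 CPM in ARM cord, a log2 difference of 0.36 ± 0.15. AABR07039234.1 on the X chromosome had 12.5, 13.5 and 15.04 CPM against 17.4, 16.7 and 18.2 CPM (0.35 ± 0.15). Ccdc171, named after a coding gene, had 13.5, 11.3 and 14.6 CPM against 15.8, 17.0 and 18.2 CPM (0.37 ± 0.17). The groups did not overlap in these 3 rows. The others were Rn60_20_0050.7 (0.72 ± 0.29), AABR07030501.1 (0.49 ± 0.20), AC094126.1 (0.75 ± 0.26) and AABR07011996.1 (0.51 ± 0.25). AC094126.1 had 6 to 12 counts per library and an unadjusted p of 0.053 by edgeR. AABR07054593.1, with a like ratio of difference to SE, had 0.0251, so the SE can understate the uncertainty at low counts. None of the named higher rows passed the adjusted threshold.

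Some rows were high in one library and near 0 in another. Taking at least 20 counts in 1 library and at most 3 in another, 21 of the 280 Ensembl rows that ever reached 20 counts did so (7.5%), against 4.94% of such NONCODE rows and 15.4% of assembled rows. Among Ensembl rows on the X chromosome the share was 7 of 30 (23.3%). The share among X rows of the other classes was not computed, so this value is not read as a trait of Ensembl rows. The rule of 20 and 3 counts was chosen after seeing the data. Of the 21 rows, 17 had another row that overlapped them or shared their name, and in 9 of these the sum over the rows stayed within 2-fold over the 6 libraries. Of the 4 rows without a partner, 0 did. Both rows of AABR07004228.1 and both of AABR07027243.1 are among the 9 and share a sum, so the 9 are not separate loci. Where the partner rows are much larger, the sum stays level whatever the row does.

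AABR07004228.1, on chromosome 1, has a pair of rows with the same start and end. One had 0, 0 and 41 counts in normal and 1, 0 and 0 in ARM cord, and the other 26, 37 and 1 against 23, 34 and 36. The reads of normal replicate 3 stood in one row and those of the remaining libraries in the other. Their sum was 26, 37 and 42 against 24, 34 and 36 counts.

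In AABR07027243.1, on chromosome 17, one row had 27 counts in ARM replicate 3 and 0 in the other 5 libraries. The other row had 15, 11 and 28 counts in normal and 5, 11 and 0 in ARM cord, and with an overlapping NONCODE row the sum was 16, 24 and 34 against 25, 21 and 27. The row behind the log2 difference of -1.60 given above thus had 0 counts in the library where its neighbour of the same name had 27. Rn60_20_0056.5, on chromosome 20, had 55, 132 and 98 counts in normal and 95, 0 and 71 in ARM cord, and its sum with an overlapping NONCODE row was 129, 249 and 238 against 190, 215 and 144. Rn60_13_0839.5, on chromosome 13, had 82, 91 and 1 counts against 108, 2 and 60, while its locus summed to 237 to 278 CPM in all 6 libraries. The other row of that name alone had 121 to 159 CPM, against 0.221 to 29.0 CPM for this row. That sum was thus level mainly through larger rows and does not bear on an exchange of reads.

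A pair annotated as U3, the small nucleolar RNA of ribosomal RNA processing, lay at one position on chromosome 20 and had low counts. The row named U3 had 0, 5 and 7 counts in normal and 0, 5 and 0 in ARM cord, and the row named ACEA_U3 3, 1 and 1 against 6, 1 and 2. They were chosen after their values were seen, and at 7 or fewer counts per row and library they cannot show an exchange of reads. How reads were assigned to overlapping rows was not tested.

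**Figure D5:**
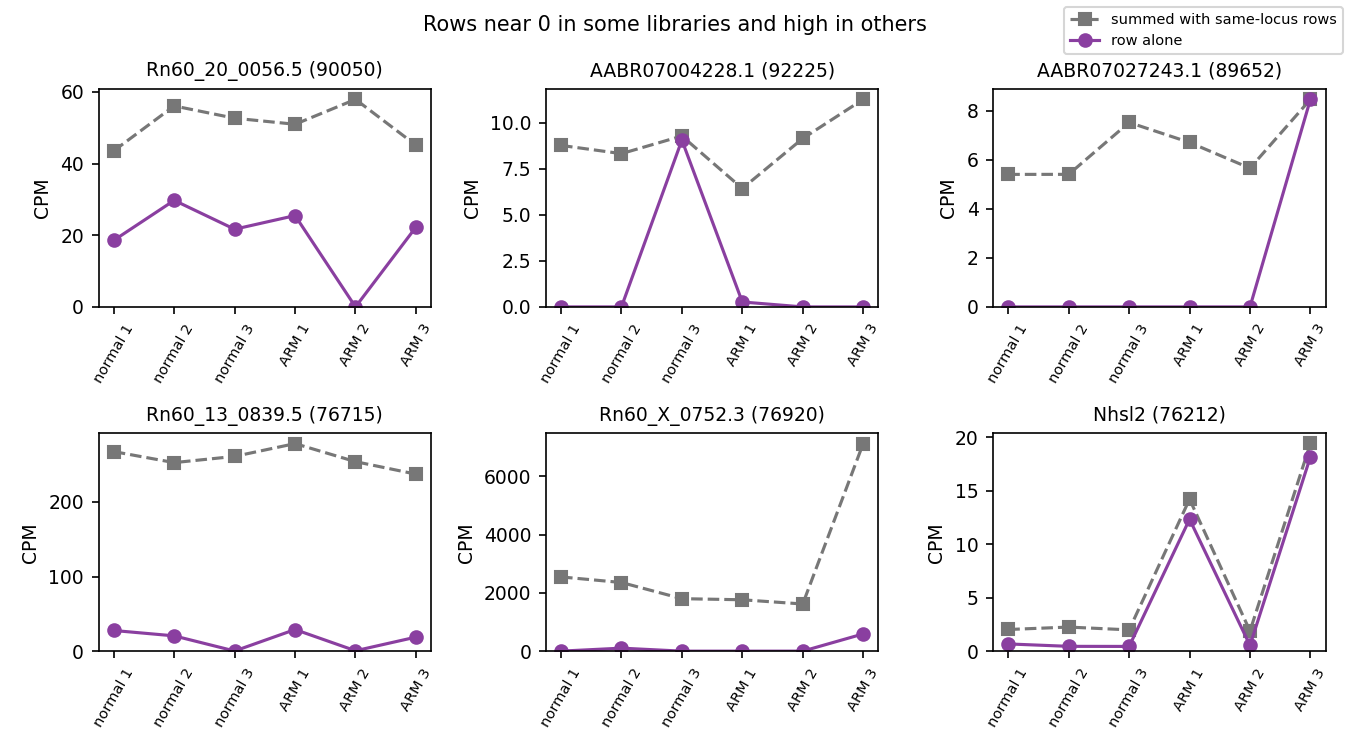
CPM in the 6 libraries of 6 Ensembl rows that had at least 20 counts in one library and at most 3 in another (purple), and of the sum with the rows that overlap them or share their name (grey). The sum stays within 2-fold for the first 4 rows. For Rn60_13_0839.5, the last of these, the sum is set mainly by larger partner rows. For Rn60_X_0752.3 it is high with the row in ARM replicate 3 but not in normal replicate 2, and for Nhsl2 it is high in the same libraries as the row.

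Other rows had no partner or were not levelled by one. Rn60_X_0752.3, on the X chromosome (74333329 to 74334974), had 3, 458 and 2 counts in normal and 2, 2 and 1887 in ARM cord. An overlapping NONCODE row of 4389 bases had 2545, 2251 and 1799 CPM in normal and 1761, 1617 and 6526 CPM in ARM cord, and another NONCODE row, 7366 bases long and within 10000 bases, had 5817, 5342 and 4067 CPM against 3742, 3463 and 16962 CPM. In all 3 rows ARM replicate 3 was the highest library. Of the 3, the Ensembl row alone was near 0 in any library, with at most 3 counts in 4 of them, and it did not pass the read filter. The remaining rows within 10000 bases were not highest in ARM replicate 3. A second Rn60_X_0752.3 row had 2 counts in every library. A further NONCODE row had 14.2, 9.91 and 11.3 CPM in normal and 4.29, 7.81 and 9.72 CPM in ARM cord.

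RGD1564534, whose RefSeq name is Chchd4l1 and whose promoter is printed above, had 124 counts in ARM replicate 1 and 0 in the other 5 libraries. Rn60_X_0739.1 had 43 counts in normal replicate 2 and 0 elsewhere. The 3 rows named Fam9b, which overlap on the X chromosome, had 21, 9 and 8 counts in ARM replicate 3 and 0 in all other libraries. AABR07032348.2, on chromosome 18, had 37 counts in ARM replicate 1 and at most 1 elsewhere. Each of these values rests on 1 library and says nothing of the groups.

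Nhsl2, named after a gene of the Nance-Horan syndrome family, was the only Ensembl row called under any setting tried. Its row (556 bases, X chromosome) had 2, 2 and 2 counts in normal and 46, 2 and 58 in ARM cord, so ARM replicate 2 stood with the normal libraries. It did not pass the read filter with all 6 libraries. Without ARM replicate 2 it passed and was higher in ARM cord by 4.82 ± 0.37 log2 units, with an edgeR adjusted p of 0.0310, while 0.119% of all rows tested in that setting were called. With all 6 libraries and no read filter, its difference was 4.22 ± 1.18 with an adjusted p of 0.9998. Since the library left out is the ARM library without the signal, the call is given as a description. A second Nhsl2 row had 4, 8 and 7 counts against 7, 5 and 4.

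Over all rows of like depth, these loci included, the Ensembl rows varied between replicates about as much as NONCODE rows. The median SD within groups was 0.33 log2 units for rows averaging 10 to 30 counts, 0.23 for 30 to 100, 0.16 for 100 to 300 and 0.15 above that. NONCODE rows had 0.33, 0.25, 0.18 and 0.12 in the same bins, and assembled rows 0.50, 0.38, 0.31 and 0.29. These are descriptions of bins, with no test.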

How the data were processed

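Reads were counted per transcript by the authors, who deposited whole-number counts and FPKM values per library, per the file headers. The deposited FPKM equalled counts over length over a per-library total of 18945583 to 30430852, of which lncRNA counts made up 14.6% to 17.4%. Cuffdiff, Cufflinks 2.1.1, TopHat2 2.0.9 and CASAVA 1.8 are named, with build mm10, per the submitters' processing notes. The table holds a chromosome 20, which the mouse lacks, and the build of its coordinates, the counter and the strand setting were not found in the labels or headers. The deposited miRNA table was not used.

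All 22701 rows were fitted with edgeR 4.0.16 (TMM, filterByExpr, glmQLFit, glmQLFTest) in R 4.3.3 with no covariate. Benjamini-Hochberg adjustment ran over the 13584 tested rows. SE was the absolute log2 fold change divided by the root of F. Alternatives were RLE size factors, DESeq2 1.42.0, other read filters, a replicate block, rows summed by name and leaving out each library. The code was tested on simulated data. No pair of libraries agreed within sampling noise. Reads carry no stated molecular identifiers, so floors cover counting error only.

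Named rows were those called, the 8 with the smallest p per direction, the 12 highest by CPM and 8 by FPKM, 3 per list, the 3 longest and shortest, and the 5 with the largest replicate spread at a mean of 10 or more counts. Of the 12 highest by CPM, 1 is not reported here. The members and lists were chosen with earlier results of these data known. Names and promoters came from RefSeq GRCr8 tables.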

Additional observations from a re-analysis of the deposited data

How the results depend on the processing

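The count of Ensembl rows called between groups was 0 with RLE size factors, DESeq2 and rows summed by name. With no read filter, and with one at a mean of 10 or more counts, it was also 0. It was 0 to 1 when each library was left out, the 1 being Nhsl2 without ARM replicate 2. With the replicate number as a block, 0 Ensembl rows were called, 2 of all rows in place of 7, and the median log2 difference of the tested Ensembl rows was 0.0062. Deviations of same-numbered libraries correlated at 0.0019, 0.0266 and -0.0620. The labels do not say whether same-numbered samples were paired, and a shared litter or preparation was not tested. The Ensembl share of counts was 0.236 percentage points higher in ARM cord (0.0827 to 0.432 without 1 library), and 1.05 points as a share of FPKM. The median level per length stayed below both other classes without each library (-2.51 to -2.48 and -4.12 to -4.03), where the smallest possible exact p is 0.0625. The mean over rows gave 1.06 against NONCODE, the opposite direction, and -0.14 against assembled rows. Rows with reads in all 6 libraries numbered 529, with 5 or more counts in each 318, with 10 or more 242, and 538 to 556 without 1 library.

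Over 418 alternatives of the 35 named tested rows, 23 changed sign in 14 rows and none was called. Without 1 library, the log2 difference ran from -0.093 to 0.31 for LOC102723236, -0.089 to 0.056 for AABR07034750.1, -0.026 to 0.22 for Top2b, -0.092 to 0.035 for AABR07017145.1, -0.15 to 0.093 for AABR07024542.1, -0.27 to 0.035 for the shorter Rn60_14_0846.1 row, -0.069 to 0.24 for the longer and -0.27 to 0.067 for the shorter Snx3 row. It ran from -0.0040 to 0.052 for AABR07056953.1, -0.18 to 0.043 for the higher AABR07065531.5 row, -0.060 to 0.099 for AABR07044049.1, -0.75 to 0.63 for Rn60_13_0839.5 and -1.11 to 0.029 for Rn60_20_0056.5. Summed by name it was -0.019 for Rn60_14_0846.1, 0.013 for Snx3 and -0.033 for Rn60_13_0839.5, which was -0.0045 with DESeq2. The cause was not tested. Reads limit the rows: 680 of 985 did not pass the read filter. Depth was not the only limit, since Rn60_X_0752.3 averaged 392 counts and did not pass, with at most 3 counts in 4 libraries.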
